A study of Macaca fascicularis with 44 samples.

Results

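The Ensembl-style identifiers ENSMFAG00000045861, ENSMFAG00000000805, ENSMFAG00000001866 and ENSMFAG00000002725 were 4 of the 17293 in the gene tables of this RNA-seq series. They were selected on the measured difference in counts between betamethasone and saline, higher after betamethasone in all 4 brain regions sampled. That contrast chose them, and their levels after betamethasone and saline are given below as a description, with no test. The tests concern what that choice did not use, namely differences between regions and the way levels varied between libraries of the same group. The tables carry no gene names, and 0 of the 17293 identifiers matched the gene table at hand, so the 4 are given without name, position, sequence or role.

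Betamethasone is a synthetic glucocorticoid. Glucocorticoids enter cells and bind the glucocorticoid receptor, a transcription factor that then moves to the nucleus and raises or lowers the transcription of its target genes. The dentate gyrus is the part of the hippocampus that receives much of its cortical input and, in rodents, is known for its dense content of that receptor. The basolateral amygdala and the anterior cingulate cortex take part in responses to threat and stress.

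The series compared female cynomolgus macaques (Macaca fascicularis) given betamethasone with females given saline. Total RNA of the anterior dentate gyrus (aDG), posterior dentate gyrus (pDG), basolateral amygdala (BLA) and anterior cingulate cortex (ACC) was sequenced in 44 libraries. After betamethasone there were 5 libraries of the aDG, 5 of the pDG, 4 of the BLA and 6 of the ACC, and after saline 6 of each region. The labels give no dose, duration, age or animal for any library, and they name no strain or genetic change. Nothing states that replicates came from different animals. The p-values therefore reflect variation among the sequenced libraries, part of which may be technical.

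Depth was 28449737 to 83322595 reads in genes per library, with a median of 44944904. The labelled tissues could not be checked against marker genes, because the identifiers are not paired with names. Over all genes, 1 library was nearest to a region other than its own. It was aDG saline replicate 5, whose correlation was 0.983 with BLA libraries and 0.955 with the other dentate gyrus libraries. BLA saline replicate 5 also stood apart. A total of 198 genes were 4-fold or more above their highest level in the remaining BLA libraries, and the correlation of this library was 0.922 with BLA and 0.914 with dentate gyrus libraries. Results are therefore also given without these 2 libraries.

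Levels are counts per 1000000 gene reads of a library (CPM), from the strand column that held most reads. They do not account for gene length and are compared between libraries and regions, not between identifiers. These were bulk tissue samples, in which fewer cells of a type and less RNA per cell cannot be told apart.

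ENSMFAG00000045861 had the widest separation of the 4 between treatments. In the aDG it stood at 7.31, 12.9, 15.8, 27.8 and 35.8 CPM in the betamethasone libraries, against a lowest value of 0.0351, a median of 0.534 and a highest of 0.986 CPM in the saline libraries. In the pDG it stood at 7.86, 7.92, 10.3, 18.1 and 21.0 CPM after betamethasone, against 0.0326, 0.317 and 1.02 CPM (lowest, median, highest) after saline. All betamethasone libraries of both dentate gyrus parts thus lay above all saline libraries, with a gap of 7.41-fold in the aDG and 7.70-fold in the pDG between the lowest betamethasone and the highest saline library.

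The other regions gave the same order for ENSMFAG00000045861. In the BLA its values were 13.2, 17.1, 21.9 and 39.8 CPM after betamethasone, against 0.0215, 1.02 and 2.05 CPM (lowest, median, highest) after saline. In the ACC the lowest, median and highest values were 12.3, 15.4 and 32.3 CPM after betamethasone, against 0.0220, 1.26 and 3.04 CPM after saline. The gaps were 6.44-fold in the BLA and 4.04-fold in the ACC. The lowest of all 20 betamethasone libraries was still 2.40-fold above the highest of all 24 saline libraries.

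Mean levels of ENSMFAG00000045861 were 19.9 ± 11.6 CPM after betamethasone (SD, n = 5) and 0.520 ± 0.407 CPM after saline (n = 6) in the aDG. They were 13.04 ± 6.11 CPM after betamethasone (n = 5) and 0.492 ± 0.421 CPM after saline (n = 6) in the pDG. In the BLA they were 23.0 ± 11.8 CPM after betamethasone (n = 4) and 0.944 ± 0.821 CPM after saline (n = 6). The ACC had the highest saline mean, with 19.4 ± 8.25 CPM after betamethasone and 1.41 ± 1.24 CPM after saline (n = 6 each). The betamethasone mean was thus 38.3-fold the saline mean in the aDG, 26.5-fold in the pDG, 24.4-fold in the BLA and 13.8-fold in the ACC. The fitted log2 changes (edgeR, ± SE) were 5.21 ± 0.60, 4.71 ± 0.59, 4.69 ± 0.81 and 3.81 ± 0.59 for aDG, pDG, BLA and ACC. Without the 2 libraries that stood apart they were 4.99 in the aDG and 4.42 in the BLA. The saline values rested on few reads: 5 saline libraries held 1 to 3 reads of this identifier, whereas the betamethasone libraries reached 2238.

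**Figure D1:**
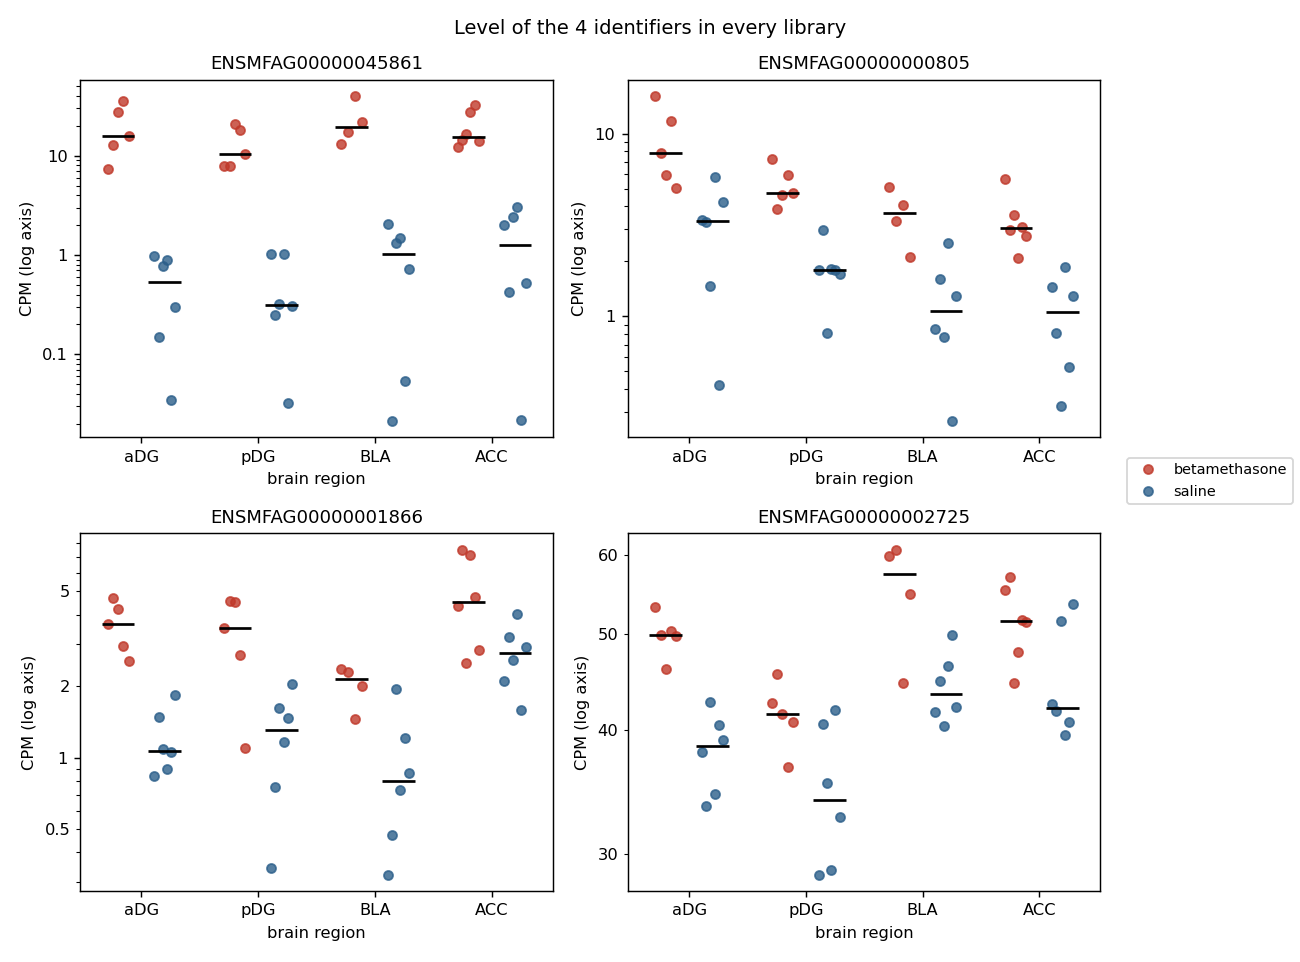
Level of each identifier (CPM, log axis) in every library by brain region, with betamethasone libraries in red, saline libraries in blue and the group median as a black bar. For ENSMFAG00000045861 the red and blue points are apart in all 4 regions, with at least 7.31 CPM after betamethasone and at most 3.04 CPM after saline; the other 3 identifiers overlap in some regions.

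ENSMFAG00000000805 differed by about the same factor in every region, but at different levels. In the aDG it had 5.05, 5.93, 7.79, 11.8 and 16.1 CPM after betamethasone, against 0.422, 3.33 and 5.79 CPM (lowest, median, highest) after saline. In the pDG it had 3.89, 4.62, 4.73, 5.91 and 7.25 CPM after betamethasone, against 0.809, 1.79 and 2.98 CPM after saline. The pDG groups did not overlap, and in the aDG 1 library of each treatment lay within the range of the other. In the BLA the values were 2.10, 3.31, 4.07 and 5.10 CPM after betamethasone, against 0.268, 1.07 and 2.53 CPM after saline. In the ACC they were 2.07, 3.03 and 5.67 CPM (lowest, median, highest) after betamethasone, against 0.323, 1.05 and 1.86 CPM after saline. The ACC groups did not overlap, and the BLA groups did, again by 1 library each. The betamethasone mean was 3.01-fold the saline mean in the aDG, 2.91-fold in the pDG, 2.99-fold in the BLA and 3.22-fold in the ACC. Fitted log2 changes were 1.59 ± 0.49, 1.55 ± 0.28, 1.65 ± 0.49 and 1.69 ± 0.36 for aDG, pDG, BLA and ACC. On leaving out the libraries that stood apart they were 1.37 in the aDG and 1.43 in the BLA.

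ENSMFAG00000001866 was separated by treatment in the aDG and overlapped elsewhere. Its aDG values were 2.54, 2.94, 3.64, 4.22 and 4.69 CPM after betamethasone, against 0.837, 1.07 and 1.84 CPM (lowest, median, highest) after saline. The pDG values were 1.097, 2.71, 3.52, 4.53 and 4.55 CPM after betamethasone, against 0.344, 1.31 and 2.05 CPM after saline. The single pDG betamethasone library at 1.097 CPM, replicate 5, lay below 4 of the 6 saline libraries. BLA values were 1.46, 1.997, 2.30 and 2.37 CPM after betamethasone, against 0.323, 0.799 and 1.94 CPM after saline. ACC values were 2.49, 4.53 and 7.49 CPM (lowest, median, highest) after betamethasone, against 1.58, 2.75 and 4.01 CPM after saline, and 2 of the 6 ACC betamethasone libraries lay within the saline range. The betamethasone mean was 3.01-fold the saline mean in the aDG, 2.66-fold in the pDG, 2.20-fold in the BLA and 1.77-fold in the ACC. Fitted log2 changes were 1.59 ± 0.26, 1.44 ± 0.43, 1.20 ± 0.43 and 0.84 ± 0.29, in the same order of regions. They were 1.57 in the aDG and 1.29 in the BLA without the libraries that stood apart.

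ENSMFAG00000002725 had the smallest change of the 4 and little spread within groups. In the aDG it had 46.1, 49.7, 49.8, 50.3 and 53.1 CPM after betamethasone, against 33.5, 38.6 and 42.7 CPM (lowest, median, highest) after saline. In the pDG it had 36.7, 40.7, 41.5, 42.6 and 45.6 CPM after betamethasone, against 28.6, 34.0 and 41.9 CPM after saline. The aDG groups did not overlap, by a margin of 1.08-fold, and the pDG groups did. BLA values were 44.6, 54.9, 59.9 and 60.7 CPM after betamethasone, against 40.3, 43.5 and 49.8 CPM after saline. ACC values were 44.6, 51.4 and 57.0 CPM (lowest, median, highest) after betamethasone, against 39.6, 42.1 and 53.6 CPM after saline. The treatments overlapped in both of these regions, with 4 of the 6 ACC betamethasone libraries at or below the highest saline library. The betamethasone mean was 1.31-fold the saline mean in the aDG, 1.19-fold in the pDG, 1.24-fold in the BLA and 1.14-fold in the ACC. Fitted log2 changes were 0.39 ± 0.09, 0.28 ± 0.10, 0.37 ± 0.11 and 0.22 ± 0.09 for aDG, pDG, BLA and ACC. Leaving out the libraries that stood apart gave 0.42 in the aDG and 0.40 in the BLA.

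Counted by region, all betamethasone libraries lay above all saline libraries for 3 of the 4 identifiers in the aDG, where 0.138% of the 14511 genes tested did so. The count was 2 of 4 in the pDG, where 0.506% of genes did so, and 1 of 4 in the BLA, with 0.792% of genes. In the ACC it was 2 of 4, with 0.805% of genes. Without the library that stood apart, the share of genes was 0.234% in the aDG and 1.33% in the BLA, and the counts of identifiers were the same. The median fitted log2 change of the 4 was 1.59 in the aDG, 1.496 in the pDG, 1.43 in the BLA and 1.27 in the ACC, beside 0.00, 0.02, -0.01 and 0.00 over all genes tested. The choice of identifiers fixed these figures, and all 4 passed the filter on low counts in every region.

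Betamethasone libraries of the same group differed more for ENSMFAG00000045861 than for most genes of its level. The SD of its log2 levels within groups was 0.71 among betamethasone libraries, and 98.8% of the genes with a like mean level in those libraries had a smaller spread. Among saline libraries the SD was 1.53. It is given without a comparison, because this identifier reached the minimum mean of 1 CPM over all libraries through the betamethasone groups, and 5 of its saline values rest on 1 to 3 reads. ENSMFAG00000002725 was at the other end, with an SD of 0.13 after betamethasone and 0.17 after saline, and 29.7% and 26.4% of genes of like level varied less. ENSMFAG00000000805 had an SD of 0.52 after betamethasone and 0.95 after saline, and 84.9% and 91.4% of genes of like level varied less. ENSMFAG00000001866 had 0.58 and 0.66, with 84.5% and 70.2% of such genes varying less.

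Whether the identifiers differed between regions was tested over all 44 libraries, as the difference between 2 regions averaged over both treatments (edgeR quasi-likelihood test, Benjamini-Hochberg adjustment over 15257 genes). This fit takes all libraries as independent, which the matching of title numbers described below puts in doubt. Of 24 tests, 10 passed the threshold of 0.05. ENSMFAG00000000805 was highest in the aDG, with a mean of both treatments of 6.21 CPM, then came the pDG with 3.55, the BLA with 2.43 and the ACC with 2.20 CPM. The log2 difference of aDG minus BLA was 1.32 ± 0.33 (SE, adjusted p = 0.00226) and that of aDG minus ACC was 1.496 ± 0.31 (adjusted p = 8.47e-05). Neighbours in this order did not pass in this fit: aDG minus pDG was 0.76 ± 0.31 (adjusted p = 0.186), pDG minus BLA had an adjusted p of 0.215 and BLA minus ACC one of 0.676. With the title-number set as a block, pDG minus BLA passed (adjusted p = 0.00753). The fit with this block leaves out ACC betamethasone replicates 3 and 4, which match no set. Without the 2 libraries that stood apart, aDG minus pDG was 0.88 and passed (adjusted p = 0.0375).

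The pDG minus ACC difference of ENSMFAG00000000805 was 0.73 ± 0.31 (adjusted p = 0.0427), and it was close to the threshold. The call was lost on leaving out pDG betamethasone replicate 1 or 4, ACC betamethasone replicate 2, 4, 5 or 6, pDG saline replicate 2 or 4, or ACC saline replicate 2, 3 or 5. The difference then stood between 0.64 and 0.73, with adjusted p of up to 0.0838.

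ENSMFAG00000001866 had another order. It was highest in the ACC, with a mean of both treatments of 3.79 CPM, then came the aDG with 2.40, the pDG with 2.26 and the BLA with 1.48 CPM. The ACC stood above every other region: the log2 difference was -0.83 ± 0.26 for aDG minus ACC (adjusted p = 0.00670), -0.84 ± 0.26 for pDG minus ACC (adjusted p = 0.00614) and -1.40 ± 0.28 for BLA minus ACC (adjusted p = 5.30e-05). The 2 dentate gyrus parts differed by 0.01 (adjusted p = 0.991). In betamethasone libraries alone, the aDG minus ACC difference was -0.46 (adjusted p = 0.241) and the pDG minus ACC difference was -0.56 (adjusted p = 0.166).

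The BLA value of ENSMFAG00000001866 was less settled. Its differences of 0.58 for aDG minus BLA (adjusted p = 0.124) and 0.56 for pDG minus BLA (adjusted p = 0.128) did not pass. Without BLA saline replicate 3, the highest of its group at 1.94 CPM, they were 0.76 (adjusted p = 0.0336) and 0.74 (adjusted p = 0.0355). Without pDG saline replicate 1 the pDG minus BLA difference was 0.68 (adjusted p = 0.0497).

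ENSMFAG00000002725 was lower in the dentate gyrus than in the BLA and ACC. Its means of both treatments were 49.6 CPM in the BLA, 48.1 in the ACC, 43.9 in the aDG and 38.1 in the pDG. The log2 difference was -0.38 ± 0.07 for pDG minus BLA (adjusted p = 2.32e-05) and -0.33 ± 0.06 for pDG minus ACC (adjusted p = 3.65e-05). It was smaller for the aDG, at -0.21 ± 0.07 against the BLA (adjusted p = 0.0172) and -0.16 ± 0.06 against the ACC (adjusted p = 0.0303). Neither aDG minus pDG (0.17, adjusted p = 0.158) nor BLA minus ACC (0.05, adjusted p = 0.561) passed.

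Both aDG differences of ENSMFAG00000002725 depended on single libraries. The aDG minus BLA call was lost without BLA betamethasone replicate 1 or 2 or BLA saline replicate 5, with adjusted p of up to 0.0637. The aDG minus ACC call was lost without any one of 11 libraries, with adjusted p of up to 0.0742. These were aDG betamethasone replicates 2 and 3, pDG betamethasone replicate 1, ACC betamethasone replicates 1, 2 and 6, aDG saline replicates 2 and 4, BLA saline replicate 6, and ACC saline replicates 3 and 6.

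For ENSMFAG00000045861 the calls depended on how libraries were related, on the count column and on single libraries. No difference between regions passed in the main fit, which uses strand counts and takes libraries as independent. With unstranded counts, the same edgeR test without a block passed pDG minus BLA (-1.07, adjusted p = 0.0485) and pDG minus ACC (-0.96, adjusted p = 0.0396). With strand counts and the title-number set as a block, 4 of the 6 passed, all with the dentate gyrus part lower: aDG minus BLA (adjusted p = 0.00466), aDG minus ACC (adjusted p = 0.000424), pDG minus BLA (adjusted p = 0.000246) and pDG minus ACC (adjusted p = 2.15e-05). The block fit kept the 2 libraries that stood apart, among them the aDG library nearest to BLA, and was not repeated without them. Means of both treatments of ENSMFAG00000045861 were 11.98 CPM in the BLA, 10.4 in the ACC, 10.2 in the aDG and 6.77 in the pDG. With libraries taken as independent, the largest log2 difference was -0.998 ± 0.47 for pDG minus ACC (adjusted p = 0.0703). Next was -0.85 ± 0.49 for pDG minus BLA (adjusted p = 0.208), and the other 4 lay between -0.70 and 0.29. The pDG minus ACC difference passed without pDG saline replicate 1 (-1.18, adjusted p = 0.0425), pDG saline replicate 4 (-1.17, adjusted p = 0.0429) or ACC saline replicate 5 (-1.13, adjusted p = 0.0304), and without both libraries that stood apart (-0.99, adjusted p = 0.0486). Split by treatment, without the block, aDG minus ACC was -1.41 in saline libraries and -0.01 in betamethasone libraries. For aDG minus BLA the values were -0.82 and -0.27, for pDG minus BLA -0.86 and -0.83, and for pDG minus ACC -1.45 and -0.57. None of these passed. The SE of aDG minus ACC was 0.89 in saline and 0.39 in betamethasone libraries, and that of aDG minus BLA 0.89 and 0.43. Whether the differences depended on treatment was not tested, and some saline values rest on few reads.

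Differences between regions were common among all genes. The number of the 4 identifiers that passed was 0 for aDG minus pDG, where 3.49% of all genes passed, and 2 for aDG minus BLA, with 26.9%. It was 3 for aDG minus ACC, with 56.5% of genes, and 1 for pDG minus BLA, with 29.6%. It was 3 for pDG minus ACC, with 55.2%, and 1 for BLA minus ACC, with 49.2%. With the title-number set as a block, more genes passed in every pair. Of 15241 genes, 1245 passed for aDG minus pDG, 5492 for aDG minus BLA and 9477 for aDG minus ACC. The counts were 5627 for pDG minus BLA, 9218 for pDG minus ACC and 8455 for BLA minus ACC. Without the block they were 533, 4109, 8624, 4517, 8427 and 7510 of 15257, in the same order. Of the 4 identifiers 0, 3, 4, 3, 4 and 1 passed with the block.

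**Figure D2:**
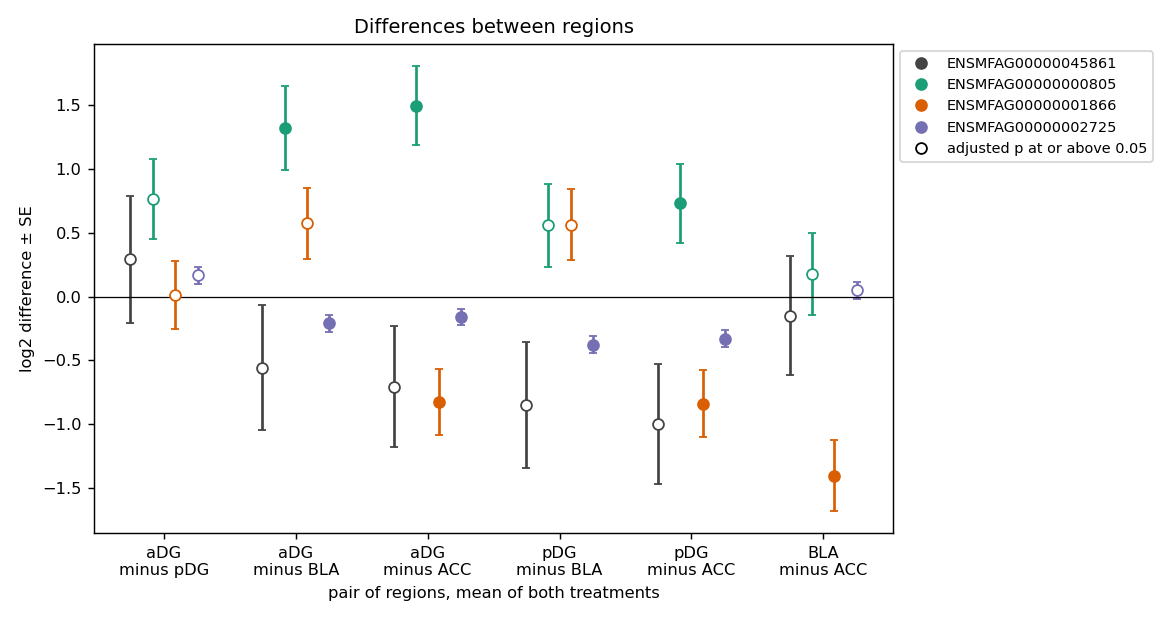
Log2 difference between each pair of regions, averaged over both treatments, for the 4 identifiers, as points with bars of 1 SE; filled points have an adjusted p under 0.05. ENSMFAG00000000805 lies above 0 in the dentate gyrus comparisons with the ACC (1.496 for aDG, 0.73 for pDG), whereas ENSMFAG00000001866 and ENSMFAG00000002725 lie below 0 there, and no point of ENSMFAG00000045861 is filled in this fit, which has no block for the title-number sets.

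The titles of the libraries hold numbers that run in parallel over the regions, and 10 sets with 1 library in each region could be matched by them, 4 of betamethasone and 6 of saline. The labels do not say that a set is an animal, and the matching in the BLA and ACC was set so that treatments agree. Over all genes, 52 of the 60 matched pairs of libraries deviated together with a correlation above 0.1, with a median of 0.383. Pairs of libraries from different sets were not correlated in this way, so this count has no baseline beside it. For each identifier, deviations from the group mean were correlated between regions over the 10 sets, and the mean of the 6 region pairs was tested by permuting sets within treatment (two-sided permutation test, 100000 resamples, adjusted over the 4 identifiers).

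Levels of ENSMFAG00000045861 went together across regions within sets. The mean r was 0.886, with all 6 region pairs between 0.816 and 0.933 (adjusted p = 4e-05, from the smallest p that 100000 permutations can give, 1e-05). Among the 13447 genes with a mean of at least 1 CPM over all libraries, the median of this mean r was 0.299. The place of ENSMFAG00000045861 among them is not given. It reached that minimum through the betamethasone groups, and 6 of the 10 sets are saline. Saline sets alone gave 0.894 (6 sets, permutation test, adjusted p = 4e-05). Without the saline set that holds both libraries that stood apart, the mean r was 0.822.

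The single sets show this order. Betamethasone set 9 had 35.8 CPM in the aDG, 18.1 in the pDG, 39.8 in the BLA and 32.3 in the ACC, the highest of the 4 betamethasone sets in every region. Betamethasone set 1 was the lowest in every region, with 7.31, 7.86, 13.2 and 12.3 CPM in the aDG, pDG, BLA and ACC. Saline set 8 held 1, 2, 3 and 1 reads of this identifier in those regions, or 0.0351, 0.0326, 0.0535 and 0.0220 CPM. Saline sets 2 and 5 were both above the group mean in every region, at 0.883 to 3.04 CPM. In all, 7 of the 10 sets lay on one side of the group mean in all 4 regions, 3 above and 4 below.

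ENSMFAG00000000805 also went together across regions, with a mean r of 0.613 (0.364 to 0.942 over the region pairs, permutation test, adjusted p = 0.00168). Of all genes, 1593, or 11.8%, had a higher mean r. Betamethasone set 1, the lowest set for ENSMFAG00000045861, had the highest betamethasone value of ENSMFAG00000000805 in all 4 regions, at 16.1 CPM in the aDG, 7.25 in the pDG, 5.10 in the BLA and 5.67 in the ACC. Between aDG and pDG alone, over 11 sets, r was 0.382 and did not pass (permutation test, adjusted p = 0.431).

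The other 2 identifiers were less alike across regions. ENSMFAG00000001866 had a mean r of 0.396, with 5 of 6 region pairs above 0 (-0.0763 to 0.670, permutation test, adjusted p = 0.0108), and 36.8% of all genes had a higher one. It no longer passed without saline set 2 (0.238, permutation test, adjusted p = 0.129) or betamethasone set 6 (0.307, permutation test, adjusted p = 0.0579). ENSMFAG00000002725 had a mean r of 0.166 and did not pass (permutation test, adjusted p = 0.245), and 69.6% of all genes had a higher one.

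**Figure D3:**
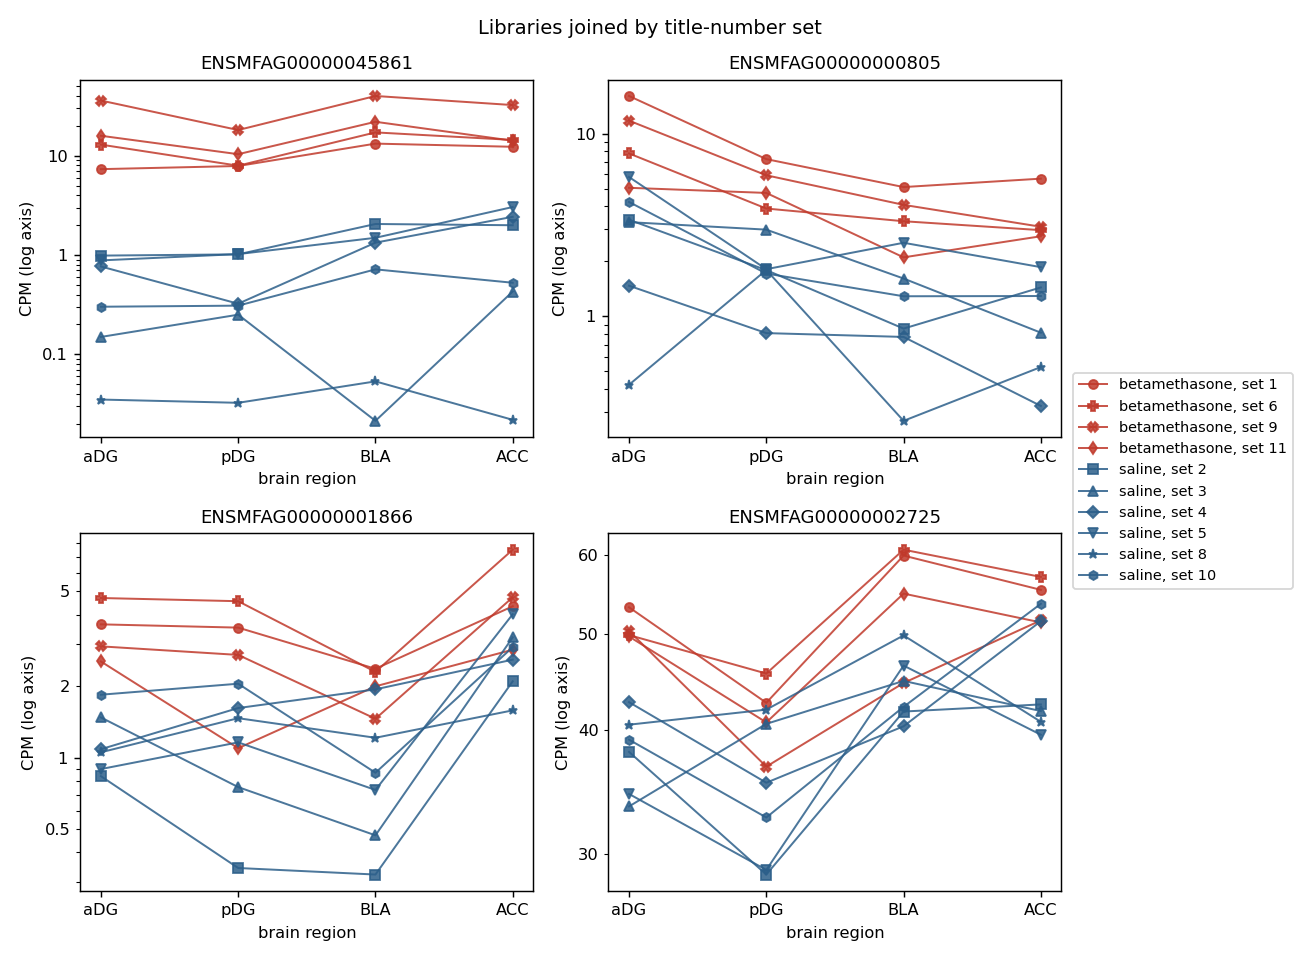
Level of each identifier (CPM, log axis) in the 4 regions, with lines that join the libraries of 1 title-number set (4 betamethasone sets in red, 6 saline sets in blue). For ENSMFAG00000045861 the betamethasone lines keep set 9 at the top and set 1 at the bottom in every region, while lines of ENSMFAG00000001866 and ENSMFAG00000002725 cross.

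Whether the 4 identifiers varied together from library to library was tested on deviations from the group means over all 44 libraries, since treatment separates the levels themselves. Of 6 pairs, 0 passed after adjustment over the 6 (two-sided permutation test within groups; 1 had an unadjusted p under 0.05). That pair was ENSMFAG00000045861 with ENSMFAG00000002725, with Pearson r of -0.37 (p = 0.0252, adjusted p = 0.151) and Spearman rho of -0.40 (p = 0.0176, adjusted p = 0.105). Without the 2 libraries farthest from the median of ENSMFAG00000045861, r was -0.50. It passed without ACC saline replicate 3 (r = -0.45, adjusted p = 0.0333) or ACC saline replicate 5 (r = -0.49, adjusted p = 0.0111). Without the 2 libraries that stood apart, r was -0.31 and did not pass (permutation test, adjusted p = 0.446). In saline libraries alone r was -0.32 (permutation test, adjusted p = 0.428), and in betamethasone libraries alone -0.60 (permutation test, adjusted p = 0.0349). Within single regions r was -0.17 in the aDG (11 libraries, permutation test, adjusted p = 0.795), -0.87 in the pDG (11 libraries, permutation test, adjusted p = 0.00924), -0.56 in the BLA (10 libraries, permutation test, adjusted p = 0.211) and 0.0388 in the ACC (12 libraries, permutation test, adjusted p = 0.928). Libraries of 1 set may not be independent, and over the 10 set means r was -0.72 (permutation test, adjusted p = 0.161).

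The other 5 pairs had r between -0.14 and 0.24. ENSMFAG00000045861 and ENSMFAG00000000805, for example, had r of 0.23 (adjusted p = 0.463) and rho of 0.08, and r was -0.04 without the 2 libraries that stood apart. Across both treatments, with only region means removed, the same 2 identifiers had r of 0.75, which contains the treatment difference that chose them.

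**Figure D4:**
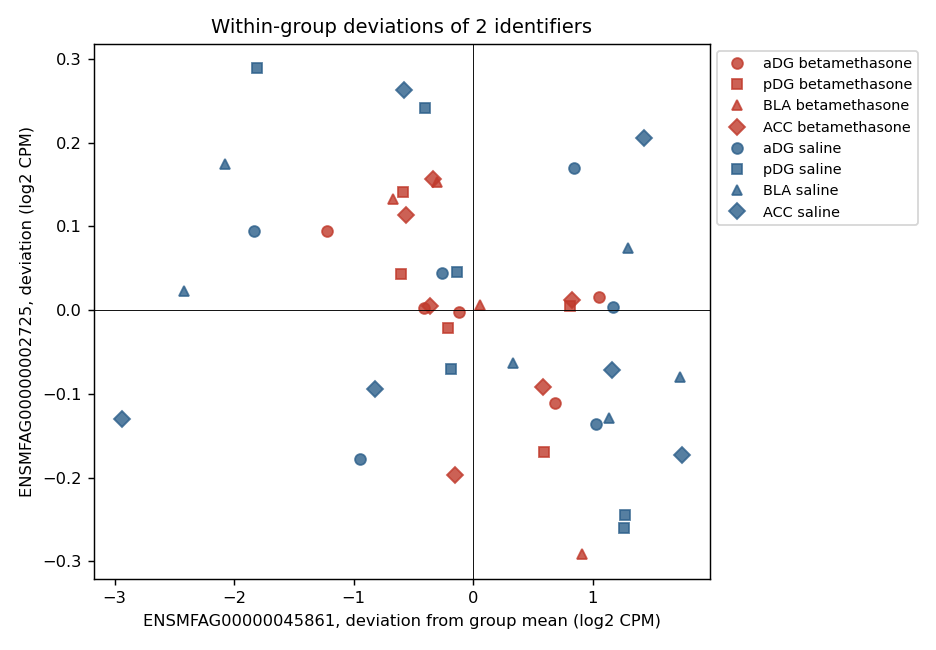
Deviation of ENSMFAG00000002725 from its group mean against that of ENSMFAG00000045861 (both log2(CPM + 0.1)), 1 point per library, with betamethasone groups in red, saline groups in blue and a marker for each region. Points lie more often at upper left and lower right (r of -0.37 over 44 libraries), and the adjusted p of 0.151 did not pass.

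The share of mapped reads that fell outside annotated genes moved with ENSMFAG00000002725. Of 12 relations of the 4 identifiers with depth, unmapped share and share outside genes, it was the only one to pass, with r of 0.60 (permutation test, p = 0.00036, adjusted p = 0.00432), rho of 0.58 (p = 0.00053, adjusted p = 0.00636), and r of 0.54 without the 2 farthest libraries. Here too libraries of 1 set may not be independent, and these relations were not repeated over set means. For ENSMFAG00000045861 the same relation had r of -0.42 (adjusted p = 0.141). The share outside genes averaged 32.2% ± 2.33 after betamethasone (n = 5) and 32.9% ± 1.96 after saline (n = 6) in the aDG, and 29.4% ± 2.36 (n = 5) and 30.2% ± 3.99 (n = 6) in the pDG. In the BLA it was 30.999% ± 2.53 after betamethasone (n = 4) and 32.9% ± 3.69 after saline (n = 6), and in the ACC 28.5% ± 1.55 and 31.4% ± 3.31 (n = 6 each). It was thus on average lower after betamethasone in all 4 regions, by less than the SD of the saline libraries, while ENSMFAG00000002725 was higher. With this share removed by regression, an alternative chosen after seeing the data, r between ENSMFAG00000045861 and ENSMFAG00000002725 was -0.16 (permutation test, adjusted p = 0.822). Its part in the levels was not tested further.

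Identifiers whose levels were most like those of ENSMFAG00000045861 were ranked by Pearson r over the 44 libraries after removal of region means, among genes with a mean of at least 1 CPM. ENSMFAG00000000805 was at rank 2 of 13446, ENSMFAG00000001866 at rank 25 and ENSMFAG00000002725 at rank 142, ranks that contain the treatment contrast. The nearest identifier outside the 4 was ENSMFAG00000003869, with r of 0.757 and, within groups, 0.508. It averaged 64.9 CPM after betamethasone and 43.9 CPM after saline in the aDG, and 47.6 CPM after betamethasone and 31.2 CPM after saline in the ACC. The next was ENSMFAG00000039513, with r of 0.732 and, within groups, 0.106. It averaged 17.1 CPM after betamethasone and 14.3 CPM after saline in the aDG. With group means removed, ENSMFAG00000000805 was at rank 1792 of 13446 and ENSMFAG00000002725 at rank 13007.

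Reads on the opposite strand differed by region at 1 of the 4 identifiers. At ENSMFAG00000045861 the BLA libraries other than saline replicate 5 held 16 to 42 opposite-strand reads, or 0.344 to 1.05 CPM. The libraries of the other regions held 0 to 11 such reads, 0 to 0.258 CPM, apart from aDG saline replicate 5. That library, which was nearest to BLA over all genes, held 21 reads or 0.738 CPM, whereas BLA saline replicate 5 held 1 read or 0.0178 CPM. This pattern was noticed after the values were seen and was not tested, and it did not follow treatment: BLA libraries of both treatments lay in the high range. The strand counts used for the levels exclude these reads. In the BLA there were 116 opposite-strand and 4483 strand reads after betamethasone, against 148 and 281 after saline, so the opposite strand held 2.52% of both after betamethasone and 34.5% after saline. In the other regions it held 0.399% to 0.686% after betamethasone and 8.91% to 18.8% after saline. The 18.8% was that of the aDG and was 7.43% without aDG saline replicate 5.

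**Figure D5:**
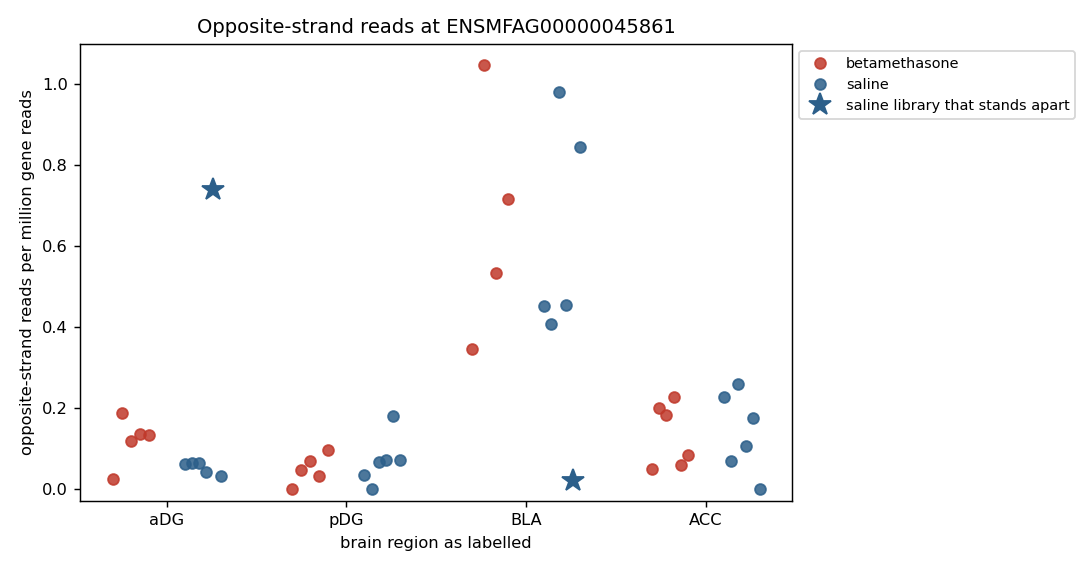
Opposite-strand level at ENSMFAG00000045861 (CPM) in every library by labelled region, betamethasone in red and saline in blue, with stars for the 2 saline libraries that stood apart. BLA circles lie between 0.344 and 1.05, other circles reach at most 0.258, and the stars are at 0.738 (labelled aDG) and 0.0178 (labelled BLA).

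The counting mode mattered for ENSMFAG00000002725, in its absolute level and in the size of its differences. Its unstranded count was 23.1% to 53.5% of its strand count (median 45.3%) in all 44 libraries, so a part of its reads was set aside when strand was ignored. With unstranded counts its aDG minus BLA difference was -0.41 and aDG minus ACC -0.47, in place of -0.21 and -0.16. Its aDG minus pDG difference was 0.03 in place of 0.17, and pDG minus ACC -0.50 in place of -0.33. The log2 treatment change in the ACC was 0.34 in place of 0.22, and in the aDG 0.35 in place of 0.39. For the other 3 identifiers the unstranded count was at least as large as the strand count in every library. The log2 treatment change of ENSMFAG00000045861 was smaller with unstranded counts in all 4 regions. It was 4.89 in the aDG, 4.51 in the pDG, 4.11 in the BLA and 3.69 in the ACC. With strand counts it was 5.21, 4.71, 4.69 and 3.81 in the same order. Opposite-strand reads were few for ENSMFAG00000000805, ENSMFAG00000001866 and ENSMFAG00000002725, at most 16 in any library.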

How the data were processed

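The authors deposited raw read counts per gene for each of the 44 libraries, 1 unstranded column and 1 per strand. The submitters' processing notes name STAR, and the names of the deposited files carry the assembly MacFas5-0. Its annotation and the STAR version are not given in the sources. The strand column used here held 51.7 to 79.3 times the reads of the other. Counts of 139 identifiers on several rows were summed, and the rows that name no gene were left out of totals: 11.0% to 31.4% of reads were unmapped, 24.5% to 37.2% of mapped reads lay outside genes and 0.333% to 0.455% were ambiguous. Multimapping was listed as 0, so how reads of near-identical copies were counted is unknown. Fits used edgeR 4.0.16 in R 4.3.3 (TMM; filterByExpr with a minimum count of 10 and a minimum total of 15; robust quasi-likelihood F tests; Benjamini-Hochberg adjustment), and DESeq2 1.42.0 as an alternative. Each region was fitted alone for treatment, and all 44 libraries for regions; SE is the log2 change divided by the square root of F. Permutations (NumPy 2.4.6) used log2(CPM + 0.1) and 100000 resamples within groups. The procedures were tested on simulated data. The 4 identifiers were given and, with all lists and tests, chosen with earlier results of these data known; of other identifiers, the 2 with the highest r to ENSMFAG00000045861 are named.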

Additional observations from a re-analysis of the deposited data

How the results depend on the processing

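The log2 treatment changes of the 4 identifiers kept their direction in all 88 values from other tools, scalings, filters, count columns and sample choices and in all 176 with 1 library left out. These contrasts chose the identifiers, so a kept direction is description and no further evidence. Among the alternatives for region differences, 167 values kept direction and side of the threshold. The exceptions were as follows, and the cause was not tested. In saline libraries alone, ENSMFAG00000001866 aDG minus pDG was -0.0602, ENSMFAG00000000805 aDG minus BLA 1.36 and pDG minus ACC 0.82, and ENSMFAG00000002725 aDG minus BLA -0.20, aDG minus ACC -0.23 and BLA minus ACC -0.0303. In betamethasone libraries alone, ENSMFAG00000002725 aDG minus BLA was -0.18 and aDG minus ACC -0.0827, ENSMFAG00000001866 aDG minus ACC -0.46 and pDG minus ACC -0.56, ENSMFAG00000000805 pDG minus ACC 0.64 and ENSMFAG00000045861 BLA minus ACC 0.26. In these subsets, ENSMFAG00000001866 aDG minus pDG, ENSMFAG00000002725 BLA minus ACC and ENSMFAG00000045861 BLA minus ACC changed sign without passing. The other differences listed for the subsets no longer passed. The subsets hold fewer libraries. ENSMFAG00000002725 aDG minus ACC was -0.13 with upper-quartile scaling and -0.15 with no filter, and passed in neither. Without the 2 libraries that stood apart, ENSMFAG00000000805 aDG minus pDG was 0.88 and ENSMFAG00000045861 pDG minus ACC -0.99, and both passed. With unstranded counts, ENSMFAG00000045861 was -1.07 for pDG minus BLA, -0.96 for pDG minus ACC and 0.11 for BLA minus ACC, and ENSMFAG00000002725 BLA minus ACC was -0.0573. The pDG minus BLA and pDG minus ACC differences then passed. Both BLA minus ACC values changed sign without passing. With the title-number set as a replicate block, ENSMFAG00000045861 was -0.68 for aDG minus BLA and -0.79 for aDG minus ACC. It was -0.91 for pDG minus BLA and -1.02 for pDG minus ACC, and ENSMFAG00000000805 was 0.74 for pDG minus BLA. These 5 then passed, and 15 of 24 tests did so in place of 10, while more of all genes passed as well. That fit leaves out ACC betamethasone replicates 3 and 4, which match no set, and keeps the 2 libraries that stood apart. The block was kept as an alternative because the labels do not call a set an animal. Of the 60 matched pairs, 52 and not every one correlated above 0.1, with no unmatched pairs measured beside them. For ENSMFAG00000045861 libraries of 1 set deviated together (mean r of 0.886), which the fit without a block leaves out of account. For ENSMFAG00000002725 the mean r was 0.166 and did not pass. The 2 fits were not compared further.

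With 1 library left out, the ranges of the differences whose call or sign moved were -0.10 to 0.13 (ENSMFAG00000001866, aDG minus pDG), 0.49 to 0.76 (aDG minus BLA) and 0.47 to 0.74 (pDG minus BLA). For ENSMFAG00000002725 they were -0.24 to -0.17 (aDG minus BLA) and -0.18 to -0.13 (aDG minus ACC), for ENSMFAG00000000805 0.64 to 0.86 (pDG minus ACC), and for ENSMFAG00000045861 -1.18 to -0.79 (pDG minus ACC) and -0.37 to 0.0551 (BLA minus ACC).

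Among correlations of deviations, ENSMFAG00000045861 with ENSMFAG00000000805 was -0.31 in betamethasone libraries, -0.0373 without the 2 libraries and -0.0379 in the pDG; with ENSMFAG00000001866 it was 0.40 in the ACC, and -0.16 to 0.0288 with 1 library left out. ENSMFAG00000045861 with ENSMFAG00000002725 was -0.42 with a pseudocount of 1, -0.60 in betamethasone libraries and -0.87 in the pDG, which passed, and 0.0388 in the ACC; with 1 library left out it was -0.49 to -0.31. ENSMFAG00000000805 with ENSMFAG00000001866 was 0.12 in the aDG and 0.10 in the ACC, and with ENSMFAG00000002725 0.16 in betamethasone libraries, 0.0695 in the pDG and 0.0656 with the share outside genes removed. ENSMFAG00000001866 with ENSMFAG00000002725 was -0.10 in the aDG. ENSMFAG00000002725 with the unmapped share was -0.00435 without the 2 libraries.

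The mean r over sets was 0.38 for ENSMFAG00000000805 and 0.68 for ENSMFAG00000001866 between aDG and pDG alone. In alternatives chosen after seeing the data, it was 0.27 for ENSMFAG00000001866 in saline sets and 0.55 for ENSMFAG00000002725 in the 4 betamethasone sets, too few for a reliable r. With 1 set left out, it was 0.822 to 0.931, 0.556 to 0.713, 0.238 to 0.481 and 0.0712 to 0.278 for the 4 identifiers in the order of the opening.

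Levels of a few reads, as in the lowest saline libraries of ENSMFAG00000045861, are imprecise by counting alone.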
